A study of Mus musculus with 95 samples.

Results

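The 9 genes described here encode astrocyte proteins that build, silence or remove synapses: Sparc, Sparcl1, Gpc4, Gpc5, Gpc6, Chrdl1, Thbs4, Megf10 and Mertk. They were chosen by symbol, and each symbol matched 1 Ensembl gene among the 55471 features of the count table. They were followed in the nucleus accumbens, a ventral striatal region of the reward circuit, of male and female mice after ethanol exposure. Every mouse, of mixed B6;FVB background, carried the transgene Tg(Aldh1l1-EGFP/Rpl10a)JD130Htz, in which regulatory sequence of the astrocyte gene Aldh1l1 drives an EGFP-tagged ribosomal protein. Tagged ribosomes were captured from tissue punches by translating ribosome affinity purification, giving an immunoprecipitate (IP) enriched for RNA translated in astrocytes, and an aliquot of the same punch kept before capture gave the input, the RNA of the whole tissue. Dependent mice had 5 rounds of CIE (chronic intermittent ethanol exposure) combined with 2BC, a voluntary choice between bottles. Non-dependent mice had 2BC alone, and naive mice had no ethanol. Ages are not given in the labels. There were 18 dependent, 13 non-dependent and 15 naive IP libraries, and 18 dependent, 15 non-dependent and 16 naive input libraries. They came from 49 mice, of which 46 gave both fractions.

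Astrocytes regulate synapses through secreted and surface proteins. Hevin, encoded by Sparcl1, promotes synapse formation by bridging adhesion proteins across the synaptic cleft, and SPARC, its relative, antagonises it. Glypicans are heparan sulfate proteoglycans on the cell surface, and glypican 4 and glypican 6 released by astrocytes recruit AMPA-type glutamate receptors to synapses. Chordin-like 1, encoded by Chrdl1, is an antagonist of bone morphogenetic proteins (BMPs) that promotes the switch to GluA2-containing receptors as synapses mature. Thrombospondins induce structurally complete synapses through the neuronal calcium channel subunit encoded by Cacna2d1. MEGF10 and MERTK are phagocytic receptors with which astrocytes engulf synapses.

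Library totals were 14314236 to 27146790 counts in IP and 12803108 to 23948193 in input, and the mitochondrial share of counts was 0.486% to 2.17% in IP and 6.85% to 17.9% in input. The labelled fractions differed in their cell type markers: all of the 15 astrocyte markers had more in IP (their median log2 ratio of IP to input was 3.10), and 11 of 11 neuron markers were lower (median -1.32). The samples came in 6 labelled batches, of which C and G held 1 dependent female each, I held no naive mice and L no non-dependent mice. Treatment was therefore fitted on batches I to L with batch as a term, in 44 IP and 47 input libraries. 1 mouse, the non-dependent male K15, stood apart: over 9507 genes its IP went against its own input (correlation of their deviations from the group means -0.336), while 45 of 46 mice had a correlation over 0.1. The input closest to it was that of the dependent male L26, and whether a label was exchanged could not be settled from the data. It is kept under its labels. Some results that pair the fractions or rest on its group are also given without it, where stated. The others are given with it only. Among them are the differences between non-dependent and naive mice and the treatment tests of related and marker genes.

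The regulatory sequence of the 2 genes that passed a treatment test, Thbs4 and Sparc, is shown for context. Each run is the RefSeq window from 250 bases before to 50 bases after the annotated start on GRCm38.p6, 5′ to 3′ along the gene, with matches to GGGCGG on either strand in capitals.
Thbs4 promoter, chr13:92794769-92795068, minus strand: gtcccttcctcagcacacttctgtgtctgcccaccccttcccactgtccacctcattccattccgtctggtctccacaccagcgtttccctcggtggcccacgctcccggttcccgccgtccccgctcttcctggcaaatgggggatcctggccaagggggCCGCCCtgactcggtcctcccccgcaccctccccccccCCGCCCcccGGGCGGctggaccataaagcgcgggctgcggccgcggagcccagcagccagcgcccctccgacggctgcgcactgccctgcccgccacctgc
Sparc promoter, chr11:55420031-55420330, minus strand: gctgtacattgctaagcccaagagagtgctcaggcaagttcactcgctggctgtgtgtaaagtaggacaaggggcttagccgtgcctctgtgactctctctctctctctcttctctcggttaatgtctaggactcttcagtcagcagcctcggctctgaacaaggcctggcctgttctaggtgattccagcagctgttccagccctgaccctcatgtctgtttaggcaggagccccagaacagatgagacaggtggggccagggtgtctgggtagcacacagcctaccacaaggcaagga
The Thbs4 window was 72.0% G or C and held 3 matches to GGGCGG, 89, 51 and 42 bases before the start, and 35.7% of 32851 mouse promoter windows of this length held at least 1. The Sparc window was 55.3% G or C and held no match to GGGCGG, nor to TATAAA (in 13.6% of the windows), CCAAT (37.4%), TGANTCA (7.81%) or TTCNNNGAA (8.3%), searched on both strands. It lies inside the Sparc gene as annotated in GENCODE M21, which starts further upstream. RefSeq windows for Gpc4, Gpc5 and Mertk held 1, 1 and 4 matches to GGGCGG, and Gpc5 also held 1 match to TATAAA. A match describes letters in the window and not a bound site.

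All 9 genes were higher in IP than in input. Over the 46 mice with both fractions, with the mouse as a block, 9 of 9 passed the test (edgeR quasi-likelihood test, Benjamini-Hochberg adjusted p at or under 0.05 over 21743 genes), while 33.6% of all genes tested were called higher in IP. The median log2 ratio of the 9 genes was 2.62, set by Mertk, against -0.16 for all genes tested. In bulk samples, fewer cells of a type and less RNA per cell cannot be told apart. The 9 genes fell into 7 with ratios over 2.4 and 2 glypicans well below them.

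The hevin gene Sparcl1 and the SPARC gene Sparc, the matricellular pair, were the most abundant. Sparcl1 (chr5:104079111-104113733, minus strand, GRCm38) was at 3821, 5374 and 6696 CPM (counts scaled by the library's total; lowest, median and highest of 46) in IP, against 524, 694 and 1053 CPM (of 49) in input. The fractions did not overlap, and its log2 ratio was 3.12 ± 0.03 (SE; adjusted p = 2.71e-62), a fold of 8.71. Sparc (chr11:55394500-55423183, minus strand) was at 1721, 2830 and 5250 CPM in IP, against 354, 572 and 1287 CPM in input. These did not overlap either, and the log2 ratio was 2.50 ± 0.03 (adjusted p = 4.41e-56). In each of the 46 mice both genes were higher in IP. Sparcl1 varied little from mouse to mouse, with a ratio of 3.14 ± 0.20 (SD, n = 46) per mouse, and Sparc was at 2.52 ± 0.22.

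The glypicans divided. Gpc5 (chr14:115092215-116525179, plus strand) was at 153, 188 and 281 CPM in IP, against 14.7, 23.9 and 41.6 CPM in input, with no overlap. Its log2 ratio of 3.19 ± 0.04 (adjusted p = 1.82e-56) was the highest estimate of the 9, with Sparcl1, Chrdl1 and Thbs4 close behind. Gpc4 (chrX:52053021-52165252, minus strand) and Gpc6 (chr14:116925315-117976544, plus strand), the 2 glypicans best known as synaptogenic, were enriched less. Gpc4 was at 1.52, 5.5 and 13 CPM in IP, against 0.152, 2.00 and 7.20 CPM in input, and Gpc6 was at 5.39, 9.80 and 16.2 CPM in IP, against 1.81, 3.98 and 10.6 CPM in input. The fractions overlapped for both, and the log2 ratios were 1.58 ± 0.12 for Gpc4 (adjusted p = 5.69e-19) and 1.35 ± 0.10 for Gpc6 (adjusted p = 5.35e-18). Gpc4 was higher in IP in 45 of 46 mice, the exception being the naive male L28 at -0.34. Gpc6 was higher in 44 of 46, the exceptions being the dependent male K21 at -0.19 and the non-dependent male I06 at -0.17. At these counts the ratio of a single mouse was imprecise, with an SD over mice of 1.03 for Gpc4 and 0.77 for Gpc6.

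Chrdl1 (chrX:143285674-143394262, minus strand) was at 8.80, 28.8 and 60.6 CPM in IP, against 1.0, 4.12 and 9.5 CPM in input. The lowest IP library lay below the highest input library, yet IP exceeded input within each of the 46 mice, and the log2 ratio was 3.12 ± 0.08 (adjusted p = 1.1e-41). The 2 engulfment receptors were also higher in IP in all 46 mice. Mertk (chr2:128698956-128802894, plus strand) was at 72.5, 115 and 166 CPM in IP, against 11.7, 20.9 and 40.2 CPM in input, with no overlap and a log2 ratio of 2.62 ± 0.05 (adjusted p = 1.29e-48). Megf10 (chr18:57133090-57297467, plus strand) was at 22.7, 36.6 and 51.9 CPM in IP, against 2.87, 7.43 and 15.5 CPM in input, again with no overlap, and its log2 ratio was 2.41 ± 0.07 (adjusted p = 2.77e-37). Mertk is known from microglia as well, and 12 of 12 microglia markers were lower in IP (median log2 ratio -1.03).

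Thbs4 (chr13:92751590-92794818, minus strand) was the most variable of the 9. It was at 0, 11.9 and 70.7 CPM in IP, against 0, 1.55 and 9.23 CPM in input, and its log2 ratio was 3.11 ± 0.11 (adjusted p = 3.89e-36). It was higher in IP in 44 of 46 mice, with an SD over mice of 1.24. The exceptions were naive females: J08, at -1.13, had 6 counts in IP and 16 in input, and K13 had 0 counts in both. A count of 0 allowed up to 0.134 CPM in the K13 IP library and 0.234 CPM in its input. Thbs4 also had 0 counts in the input of the dependent female I05 (up to 0.133 CPM) and of the naive male L23 (up to 0.145 CPM). These limits rest on 3 counts and cover counting error only.

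The enrichment was present in every batch with more than 1 mouse. Mean log2 ratios in batches I, J, K and L were 2.97, 3.30, 3.23 and 3.13 for Sparcl1, 2.49, 2.92, 2.64 and 2.60 for Mertk, 3.24, 3.52, 2.61 and 3.05 for Chrdl1, and 3.45, 2.82, 2.53 and 3.20 for Thbs4. Without K15, 9 of 9 genes remained called. The 9 also passed without the mouse as a block.

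**Figure D1:**
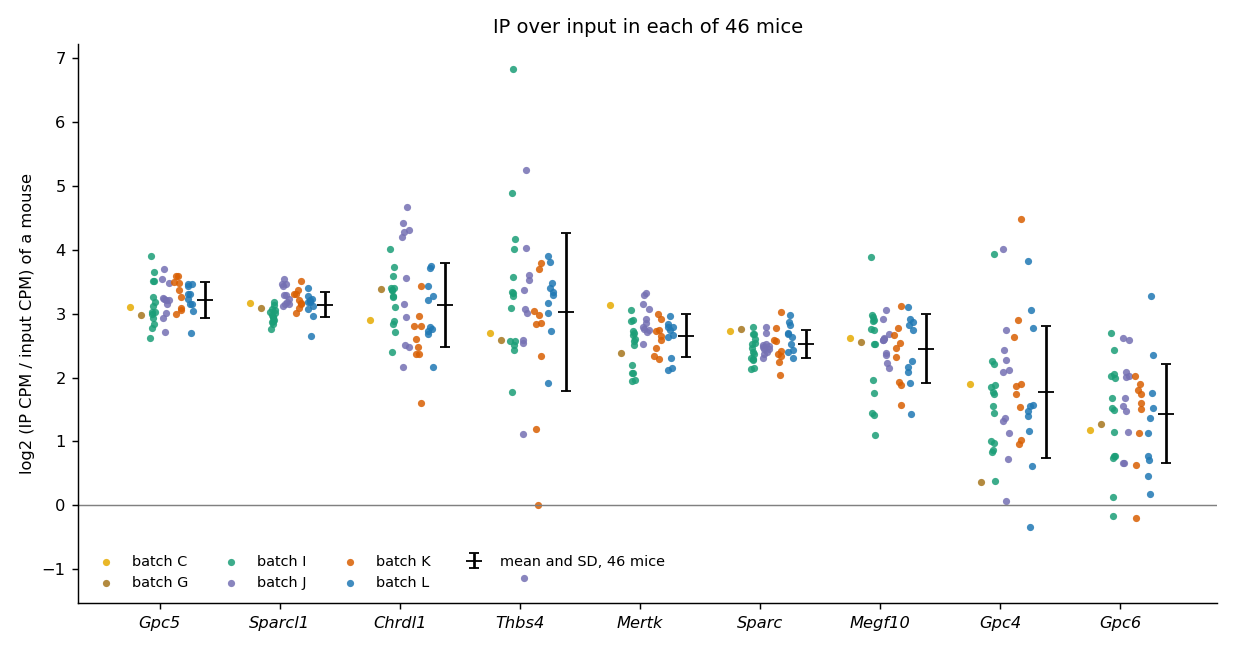
Log2 ratio of IP to input for each of the 46 mice with both fractions (1 point a mouse, placed by batch), for the 9 genes from the highest to the lowest mean ratio per mouse, with the mean ± SD beside them. The points of Sparcl1, Gpc5, Mertk and Sparc are tight and all above 1.9, those of Gpc4 and Gpc6 spread down to -0.34 and -0.19, and Thbs4 has 1 mouse at -1.13 and 1 at 0.

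Set side by side per length of exon sequence, the 9 genes lay far apart. In IP, Sparcl1 was at 1840 ± 168 CPM per kb (mean ± SD, n = 46) and Sparc at 766 ± 216. Gpc5 followed at 44.1 ± 6.92 and Mertk at 26.6 ± 5.05 CPM per kb. Then came a group whose neighbours did not differ beyond 1 SD: Thbs4 at 5.09 ± 4.48, Megf10 at 4.69 ± 0.883, Chrdl1 at 4.61 ± 1.86, Gpc4 at 2.34 ± 0.988 and Gpc6 at 1.61 ± 0.465. In input the 4 most abundant genes kept their order, with Sparcl1 at 242 ± 44.0, Sparc at 154 ± 43.2, Gpc5 at 5.56 ± 1.43 and Mertk at 4.89 ± 1.43 CPM per kb (n = 49). The order within the low group depended on the length used, since by the longest transcript Chrdl1 was at 7.61 and Thbs4 at 5.23 CPM per kb.

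**Figure D2:**
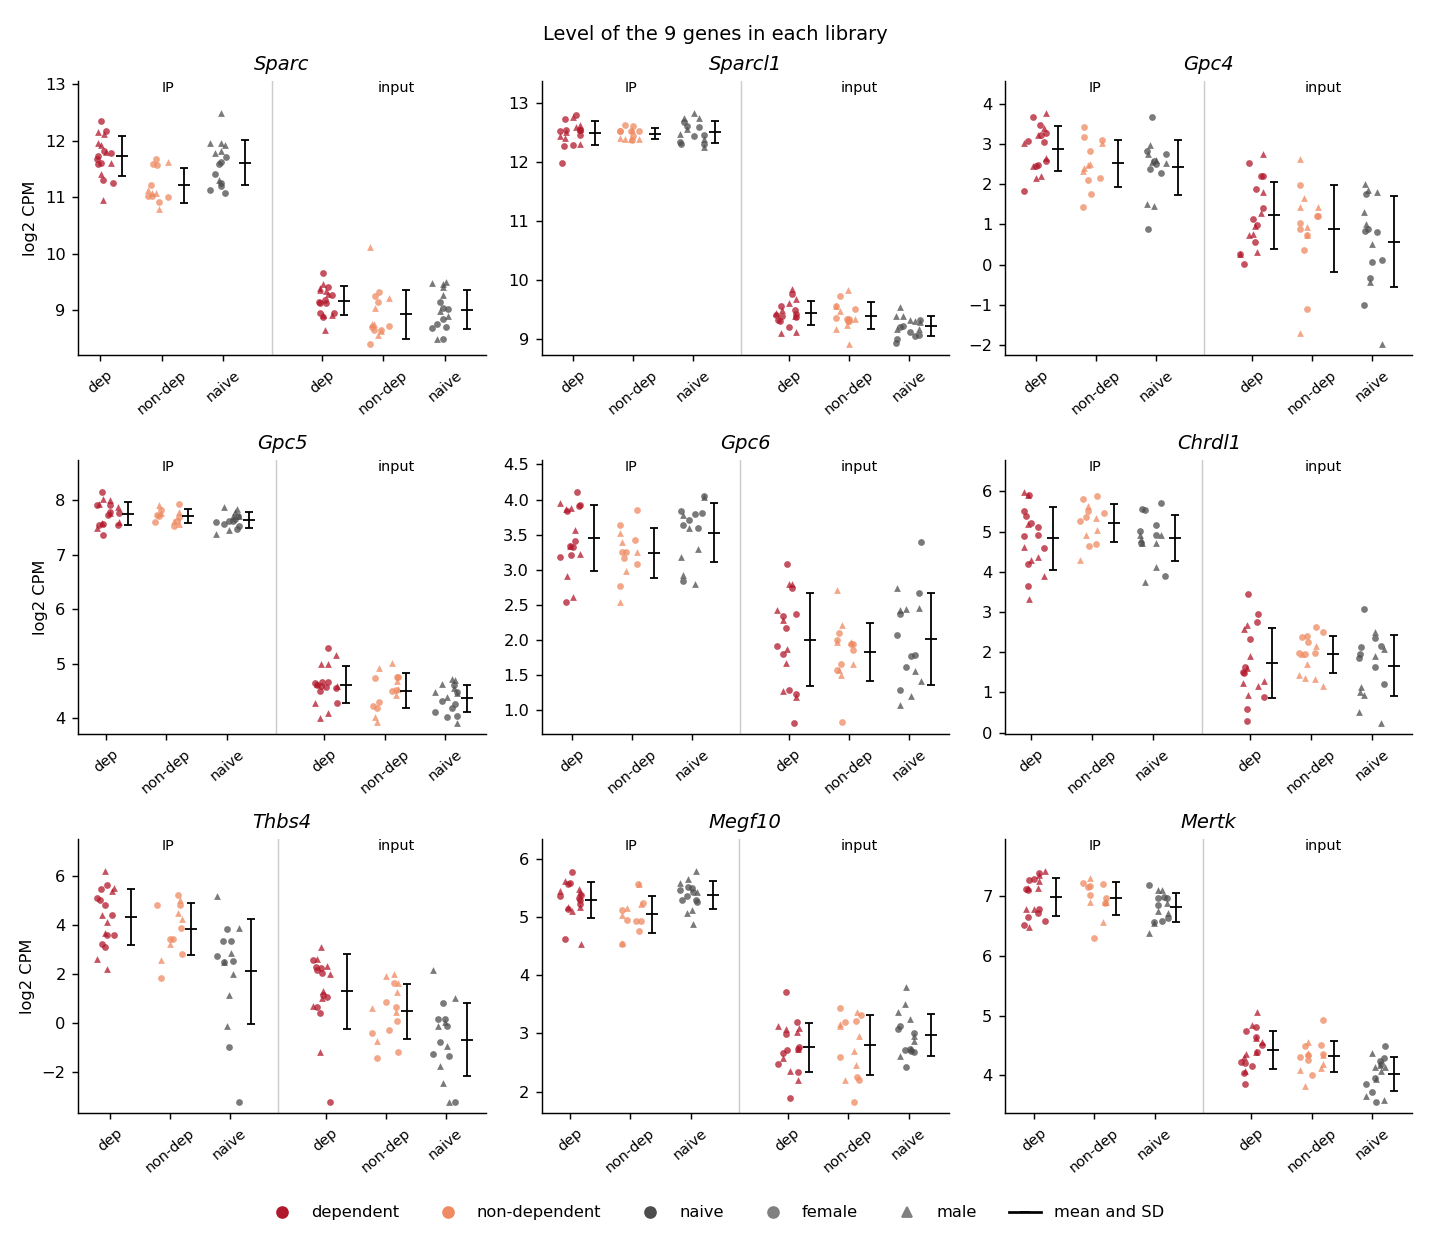
Log2 CPM of the 9 genes in each library, by fraction and treatment (1 point a library, circles females, triangles males, bars mean ± SD). The IP libraries of Sparcl1, Sparc, Gpc5, Mertk and Megf10 lie above all input libraries, whereas those of Gpc4, Gpc6, Chrdl1 and Thbs4 overlap them, and Thbs4 has the widest spread.

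Whether dependence altered these genes was asked by comparing dependent with naive and with non-dependent mice in each fraction, over both sexes. These comparisons share groups, so they are not independent of each other. In IP, 1 of the 9 genes passed between dependent and naive mice, while 4.67% of 19979 genes did (561 higher, 372 lower). This was Thbs4. With so few genes, 1 call is near what that background share gives. Thbs4 was at 4.05, 24.1 and 70.7 CPM in the dependent mice of batches I to L (lowest, median and highest of 16), 3.30, 12.7 and 35.6 CPM in the non-dependent mice (of 13) and 0, 5.45 and 31.6 CPM in the naive mice (of 15). The groups overlapped, with 15 of 16 dependent mice above the naive median and 5 above every naive mouse. These levels and counts take no account of batch, and batch I, with 7 of the dependent mice, held no naive mice. Relative to naive mice it was higher by a log2 fold change of 1.72 ± 0.52 (3.30-fold; edgeR adjusted p = 0.048).

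The same gene was called in the input, where 2.38% of 19691 genes passed between dependent and naive mice (279 higher, 190 lower). Thbs4 was at 0, 3.71 and 9.23 CPM in dependent mice (n = 16), 0.286, 1.55 and 4.37 CPM in non-dependent mice (n = 15) and 0, 0.684 and 4.08 CPM in naive mice (n = 16). Of the dependent mice, 14 of 16 were above the naive median and 6 above every naive mouse, and the log2 fold change was 1.89 ± 0.52 (3.69-fold; adjusted p = 0.0378). Within batches the dependent mice had the higher mean each time. The log2 difference in IP was 3.39 in batch J (mean log2 CPM 5.41 in dependent and 2.02 in naive mice), 2.09 in K and 1.64 in L, and in input it was 1.96, 2.13 and 2.73. These rest on few mice, 4 against 4 in J, 2 against 4 in K and 3 against 7 in L. The naive means in IP include J08 with 6 counts, K13 with 0 and K19 with 12. The remaining naive mice of K, K14 and K20, had 190 and 306 counts. The dependent mice of K, K18 and K21, had 262 and 88. In input, K13 and L23 had 0 counts and K19 had 1. The sizes of these differences depend on such near-empty libraries.

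Both Thbs4 calls lie close to the threshold. In IP the gene stayed called in 14 of the 44 fits that each left out 1 library (log2 fold change 1.55 to 2.21, adjusted p 0.0153 to 0.129). In input it stayed called in 36 of 47, and lost the call without any of J01, J07, J08, J09, K13, K19, L24, L25, L28, L29 or L31 (adjusted p 0.0516 to 0.094). The 30 fits in IP that lost the call included that without K15 (1.68, adjusted p = 0.0604).

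Markers of other cell types are given for the same comparison, in which 4.67% of all genes passed in IP. For a list of 8 or 9 genes, 1 call is near what that share gives. For ependymal and choroid plexus cells, which line the ventricles, Foxj1, Ccdc153 and Ttr had a median log2 fold change of 0.98 between dependent and naive mice in IP and 1.12 in input, although 0 of 3 passed in either (edgeR; in IP 2 of 3 had an unadjusted p under 0.05). Their summed level ranged over 6.81 to 95.7 CPM in dependent, 5.69 to 48.5 CPM in non-dependent and 0.715 to 35.5 CPM in naive IP libraries. The highest mean log2 CPM of ependymal and choroid plexus markers in IP was that of the dependent female G22 (4.37), whose batch was not in the treatment fit. Ttr, which defines choroid plexus, was at 0 in 5 of 18 dependent, 7 of 13 non-dependent and 5 of 15 naive IP libraries. Of 8 pericyte and fibroblast markers in IP, Col1a2 was higher (0.97, adjusted p = 0.000161) and Pdgfrb lower (-0.52, adjusted p = 0.00383), with a median of -0.21 and a summed level of 53.1 to 86.5 CPM in dependent, 50.4 to 94.6 CPM in non-dependent and 61.4 to 104 CPM in naive libraries. Of 9 medium spiny neuron markers, Adora2a was lower (-0.56, adjusted p = 0.0116) and the median was -0.37, with a summed level of 1335 to 4106 CPM in dependent, 2323 to 4129 CPM in non-dependent and 2258 to 4137 CPM in naive libraries. Of 8 oligodendrocyte markers, Cnp was lower (-0.32, adjusted p = 0.0222) and the median was -0.14. The markers in these 3 sentences were named after their values were seen.

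The mitochondrial share of IP counts also differed within batches. It was 0.884% to 1.10% in the dependent mice of batch J, against 1.37% to 1.52% in the non-dependent and 1.19% to 2.17% in the naive mice. In batch K it was 0.786% to 0.802% in the dependent, against 0.674% to 1.5% in the non-dependent and 0.943% to 1.32% in the naive mice, and in batch L 0.582% to 0.724% in the dependent and 0.486% to 0.834% in the naive mice. The naive mice thus lay above the dependent mice in J and K and overlapped them in L.

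In IP the Thbs4 call was lost with each cell type covariate: 1.54 with neuron markers (adjusted p = 0.0725), 1.49 with endothelial (adjusted p = 0.0812), 1.70 with microglia and 1.55 with ependymal markers (adjusted p = 0.169). In input it was lost with astrocyte markers (1.47, adjusted p = 0.157) and ependymal markers (1.80, adjusted p = 0.106), and kept with the endothelial and microglia markers. The IP call was also lost in 30 of the 44 fits that each left out 1 library. Small changes to the fit were thus enough to lose it. The part of these markers and of the mitochondrial share in the result was not tested further. Over the 11 alternatives run, Thbs4 was called in 6 in IP (adjusted p 1.8e-35, without a count filter, to 0.484, with batches J and K alone) and in 6 in input (0.0158 to 0.344). The fit without a count filter kept every gene with any count. In input that setting lost the call, so its very small p in IP is not read as stronger evidence.

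Non-dependent mice lay between the other groups for Thbs4, without a call against either. In IP it differed from naive mice by 1.10 ± 0.58 (adjusted p = 0.538), and dependent mice differed from non-dependent ones by 0.63 ± 0.50 (adjusted p = 0.715). In batch K the difference between dependent and non-dependent mice had the opposite sign, at -0.66, against 0.79 in I and 1.06 in J. In input, dependent minus non-dependent was 1.20 ± 0.51 (unadjusted p = 0.0223, adjusted p = 0.567).

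Sparc was the 1 gene of the 9 called between dependent and non-dependent mice in IP, where 1.54% of 19979 genes passed (219 higher, 89 lower). It was at 1895, 3359 and 5250 CPM in dependent mice of batches I to L (n = 16), 1721, 2092 and 3311 CPM in non-dependent mice (n = 13), and 1853, 2853 and 4847 CPM in naive mice (n = 15). The groups overlapped, but 15 of 16 dependent mice exceeded the non-dependent median and 8 exceeded every non-dependent mouse. The log2 fold change was 0.55 ± 0.12 (1.47-fold; edgeR adjusted p = 0.00542). It held in each of the 44 fits that left out 1 library (0.49 to 0.64, adjusted p 0.00113 to 0.0212; without K15 0.52, adjusted p = 0.0169), and the difference was 0.55 in batch I (7 mice against 7), 0.59 in J (4 against 3) and 0.63 in K (2 against 3). These batch differences take no account of sex, and the 2 dependent mice of K were male, against 1 male and 2 female non-dependent mice. Fitted on batches J and K alone, which hold all 3 treatments, the Sparc difference was of like size but not called (0.58, adjusted p = 0.208).

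Relative to naive mice, Sparc stood lower in non-dependent mice (-0.45 ± 0.14, unadjusted p = 0.00245, adjusted p = 0.147) and a little higher in dependent mice (0.10 ± 0.12, adjusted p = 0.768), and neither passed. In input, dependent mice were at 433, 625 and 995 CPM (n = 16) and non-dependent mice at 354, 471 and 1287 CPM (n = 15). That highest non-dependent value came from I10, a male with an input library only, and the log2 difference of 0.24 ± 0.12 did not pass (adjusted p = 0.743). Of 12 microglia markers, 4 were called higher in dependent than in non-dependent IP (Ctss 1.01, C1qc 0.83, C1qa 0.75 and C1qb 0.69), where 1.54% of all genes passed. The summed level of the list was 205 to 1070 CPM in dependent, 227 to 329 CPM in non-dependent and 220 to 325 CPM in naive libraries, with none of the 12 at 0 in the 3 groups. Dependent mice were uneven: mean log2 CPM of the list was 5.87 in I02 and 5.37 in J05, but 3.93 in I09 and 3.74 in I15. In batch K it was 3.625 and 4.04 in the dependent mice and 3.98 to 4.26 in the non-dependent mice. With the level of microglia markers as a covariate the Sparc difference was 0.60 and still called. Endothelial markers, of cells that also express Sparc, gave 0 calls of 9 (edgeR; 1 at an unadjusted p under 0.05) with a median of 0.10, and with them as a covariate the difference was 0.55. Of 9 medium spiny neuron markers 1 was lower in dependent than in non-dependent IP (median -0.29). Pericyte and fibroblast markers were not used as a covariate, and the part of these cell types in the Sparc difference was not tested further.

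**Figure D3:**
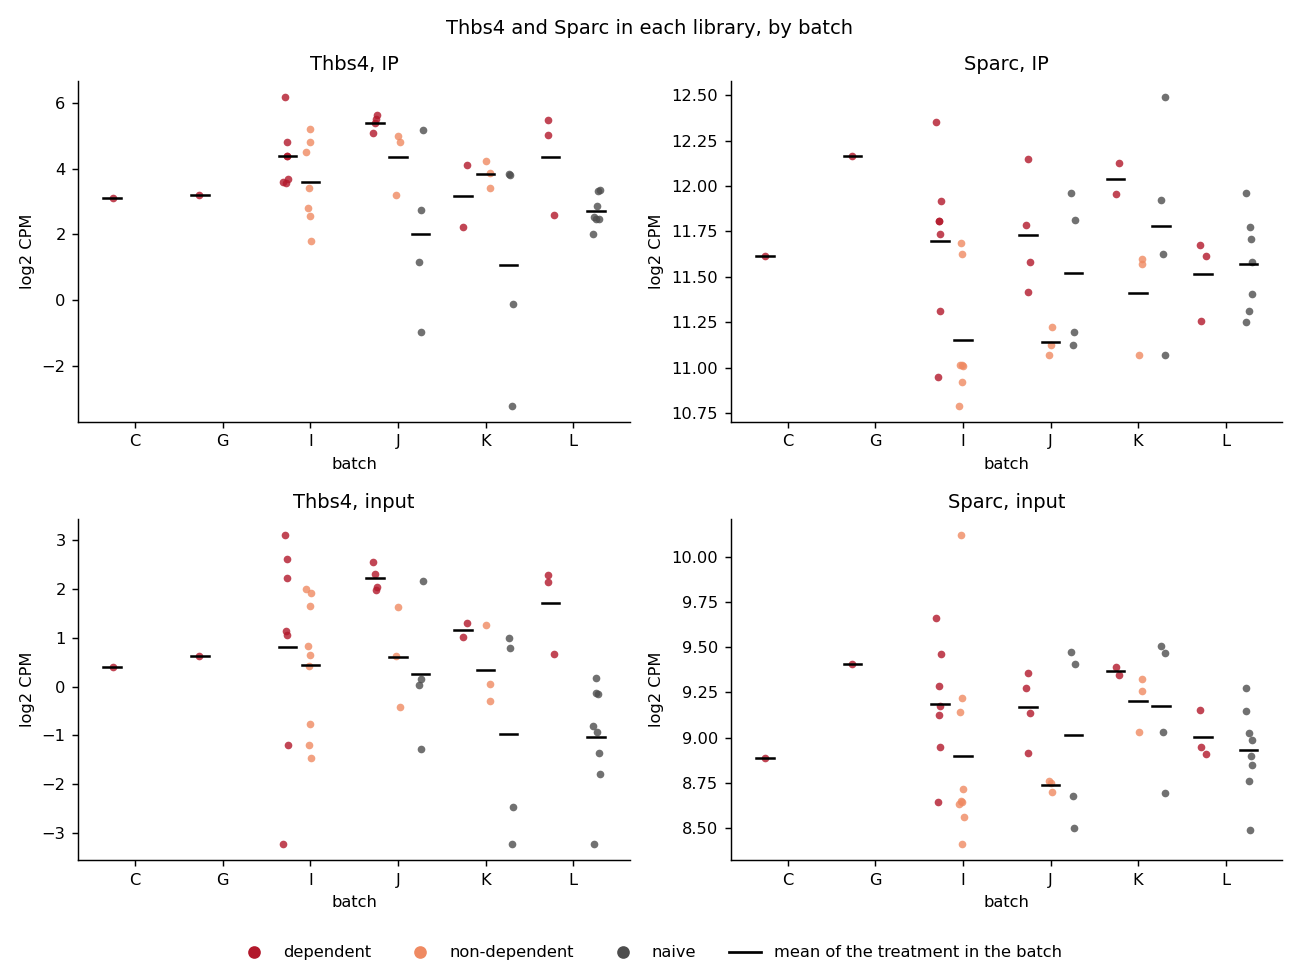
Log2 CPM of Thbs4 and Sparc in IP (upper panels) and input (lower panels) by batch and treatment (1 point a mouse, bars the mean of a treatment in a batch). In IP, dependent mice have the higher mean Thbs4 than naive mice in batches J, K and L, and the higher mean Sparc than non-dependent mice in batches I, J and K.

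The other 7 genes passed none of the 6 treatment comparisons by edgeR, while DESeq2 called Sparcl1 in 1 of them. Between dependent and naive mice in IP, Sparcl1 had a log2 fold change of -0.12 ± 0.05 (unadjusted p = 0.028, adjusted p = 0.225), Gpc4 was at 0.42 ± 0.24, and the rest lay between -0.01 and 0.06. Mertk stood at 0.05 ± 0.10 in IP and at 0.30 ± 0.11 in input (unadjusted p = 0.0108, adjusted p = 0.169), where the dependent mice were at 14.5, 22.8 and 40.2 CPM and the naive mice at 11.7, 16.7 and 26.7 CPM. Megf10 in IP was 0.22 ± 0.10 higher in dependent than in non-dependent mice (unadjusted p = 0.0387, adjusted p = 0.378), 14 of 16 dependent mice lying above the non-dependent median. Gpc5 and Gpc6 were within 0.25 of no difference in every comparison, and the standard errors of Gpc4, Gpc6 and Chrdl1, at 0.16 to 0.44, leave room for sizeable changes.

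Against naive mice, non-dependent mice had 0 of 9 calls in IP by edgeR, where 0.44% of 19979 genes passed (48 higher, 40 lower). Sparc and Sparcl1 had an unadjusted p under 0.05, Sparcl1 at -0.18 ± 0.06 (adjusted p = 0.158), and DESeq2 called Sparcl1 alone (adjusted p = 0.0463). In input the share of all genes was 0.122%, with 0 of 9 called and 0 at an unadjusted p under 0.05. Between dependent and non-dependent mice in input it was 0.355%, with 0 of 9 called by edgeR, DESeq2 or limma voom, and 1 of 9, Thbs4, at an unadjusted p under 0.05 by edgeR.

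**Figure D4:**
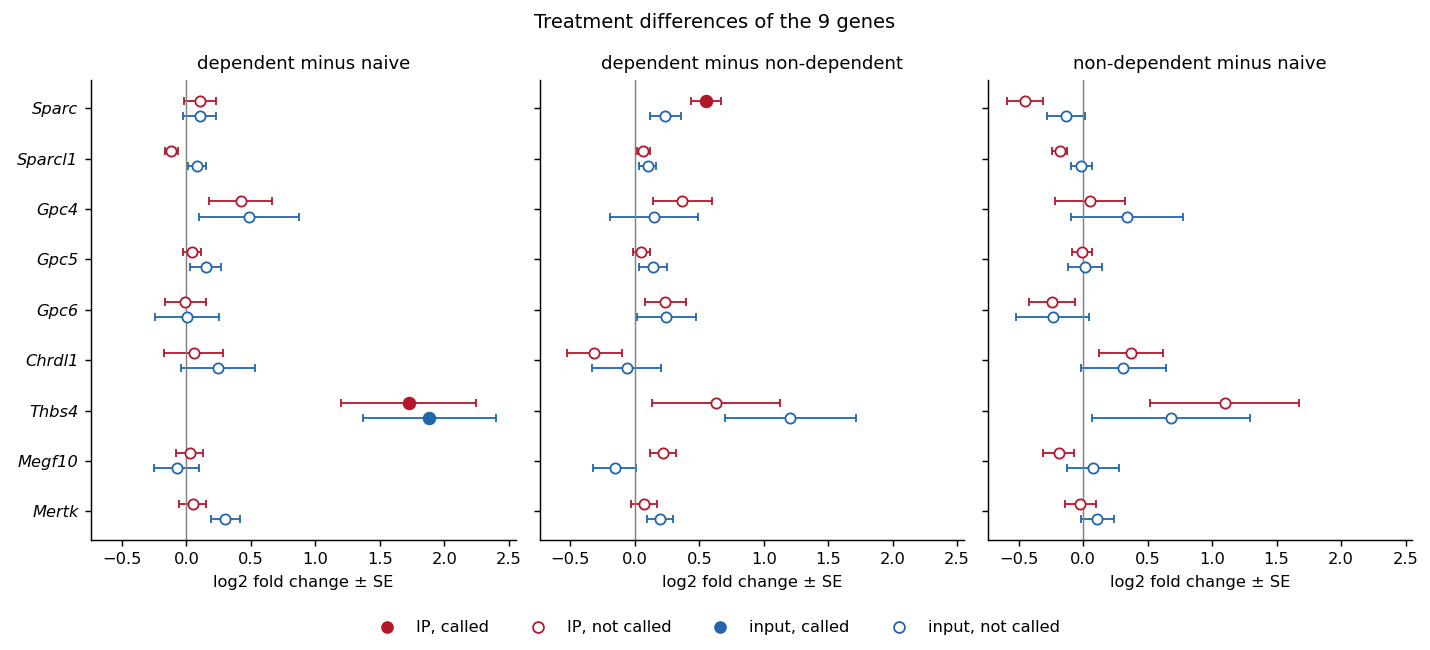
Log2 fold change ± SE of the 9 genes for the 3 treatment pairs, in IP and in input (filled points passed the test). Thbs4 is filled in both fractions between dependent and naive mice, and Sparc in IP between dependent and non-dependent mice.

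Whether a treatment difference was larger in IP than in input was tested within the 44 mice of batches I to L that gave both fractions. Of 21659 genes, 0.356% passed for dependent minus naive and 0.111% for dependent minus non-dependent, with 0 of the 9 genes in either (also without K15), and 0 genes passed for non-dependent minus naive (1196 at an unadjusted p under 0.05, and 0 by limma voom). Thbs4 had a difference between fractions of -0.23 ± 0.37 for dependent minus naive (adjusted p = 0.932), so its higher level was not shown to belong to 1 fraction. Sparc was 0.18 ± 0.08 further up in IP than in input for dependent minus non-dependent (unadjusted p = 0.0218, adjusted p = 0.504). Sparcl1 came nearest to a call, at -0.23 ± 0.06 for dependent minus naive (unadjusted p = 0.000371, adjusted p = 0.0812, and 0.0677 without K15), and limma voom called it. In this pair Sparcl1 was at -0.12 in IP and 0.08 in input, so the fractions pointed in opposite directions. A negative difference was not particular to Sparcl1. The 2 genes whose levels ran closest to it, Slc1a3 and Ndrg2, were at -0.19 and -0.14 (edgeR adjusted p = 0.232 and 0.675). The median was -0.14 for the 9 genes and -0.025 for all genes tested.

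Females and males differed in 10 genes in IP (0.0501% of those tested) and 10 in input (0.0508%), and none was among the 9 (edgeR; DESeq2 and limma voom also called 0 of the 9). Chrdl1, on the X chromosome, had the smallest unadjusted p, with a log2 fold change of 0.39 ± 0.17 in IP (p = 0.0304, adjusted p = 0.899) and 0.53 ± 0.21 in input (p = 0.0123, adjusted p = 0.849). Its median IP level was 30.1 CPM in dependent females and 22.6 in dependent males, 39.7 and 32 in non-dependent females and males, and 29.9 and 25.1 in naive females and males. The order was the same in all 3 treatments. No treatment difference passed as unequal between the sexes: edgeR called 0 genes in each of the 6 comparisons, a share of 0%, with 627 to 858 genes at an unadjusted p under 0.05 in IP and 540 to 970 in input. DESeq2 called 14 to 16 genes in IP, none of them a member. Sparc had unadjusted p values under 0.05 in IP, with females minus males at 0.52 ± 0.22 for dependent minus naive (p = 0.0229) and 0.59 ± 0.24 for non-dependent minus naive (p = 0.0164), adjusted p = 1 for both.

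Relatives and partners of the 9 genes showed where astrocyte enrichment stopped. Of 8 other glypicans and SPARC relatives tested (of 9), 2 were higher and 6 lower in IP than in input (median log2 ratio -0.83), with the testicans Spock1 at -1.27 and Spock3 at -1.41 and the follistatin-like gene Fstl1 at 1.09. Of 4 other thrombospondin pathway genes tested (of 5), Thbs3 at 1.38 and Thbs2 at 1.02 were higher, while Cacna2d1, the receptor subunit, was lower at -1.42. Among 16 synaptic partners of the secreted factors, 5 were higher and 10 lower (median -0.72), Gria2, encoding the AMPA receptor subunit GluA2, being at -1.22 and Nrxn3, encoding a presynaptic adhesion protein, at -1.22. The partners thus split between the fractions.

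Of 11 genes of BMP ligands, receptors and antagonists, the pathway of Chrdl1, 6 were higher and 5 lower in IP (median 0.36), with the receptors Bmpr1b at 3.03 and Bmpr1a at 1.83 and the ligand Bmp7 at 1.71. Of 22 other engulfment genes, 17 were higher and 4 lower (median 0.84), led by Axl, a receptor of the family of Mertk, at 3.04, the bridging protein gene Mfge8 at 2.88 and the complement gene C4b at 2.88. Of 16 other astrocyte regulators of synapses tested (of 17), 10 were higher and 6 lower (median 1.73), with the proteoglycan genes Bcan at 3.17 and Ncan at 2.31 and the adhesion gene Hepacam at 2.88.

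**Figure D5:**
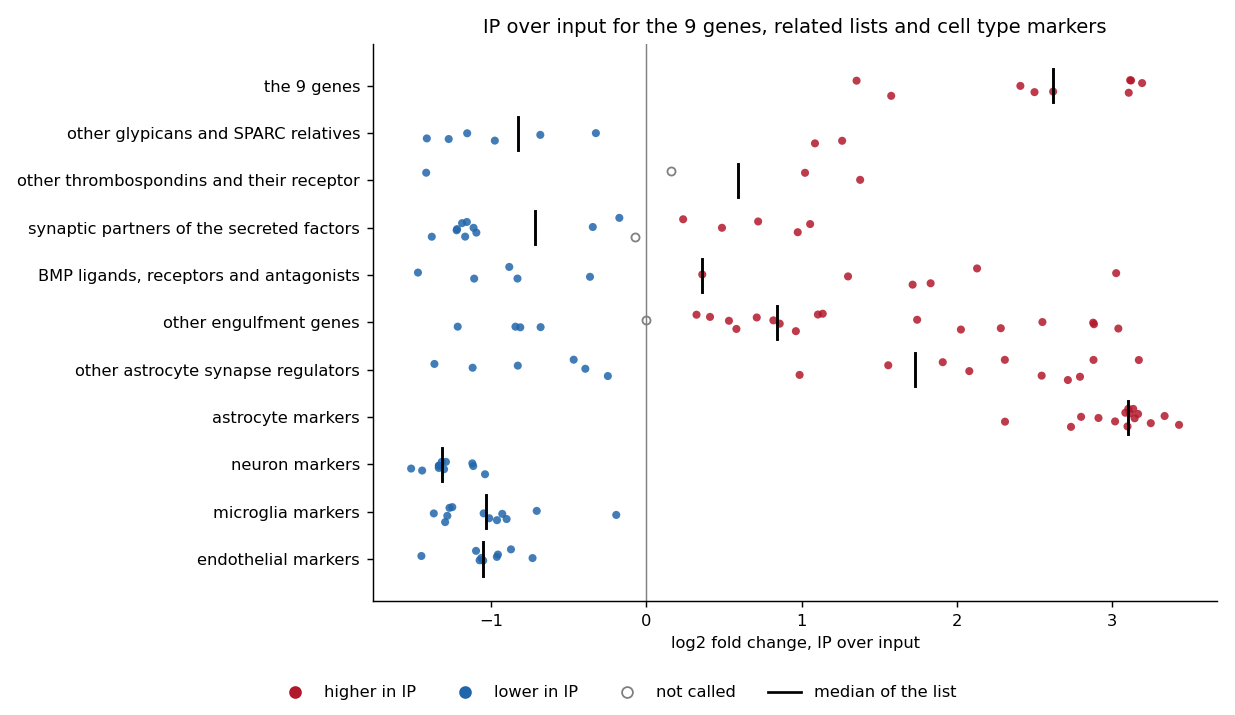
Log2 ratio of IP to input for the 9 genes, 6 lists of related genes and markers of astrocytes, neurons, microglia and endothelial cells (1 point a gene, bar the median). The medians were 2.62 for the 9 genes and 3.10 for the astrocyte markers, against -1.32 for the neuron and -1.03 for the microglia markers, with the related lists between them.

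Several of these relatives passed a treatment test. Their counts are to be read against the share of all genes called in IP, 4.67% between dependent and naive mice and 1.54% between dependent and non-dependent mice. Between dependent and naive mice in IP, 1 of 22 engulfment genes was higher and 1 lower, and no list but that of astrocyte regulators had more than 2 calls. C4b averaged 190 ± 122 CPM in dependent (SD, n = 18), 93.9 ± 20.1 in non-dependent (n = 13) and 76.7 ± 13.8 in naive IP libraries (n = 15), with a log2 fold change of 1.03 ± 0.19 against naive mice (edgeR adjusted p = 0.000696). Mfge8, which bridges dying material to phagocytes, went the other way, at 644 ± 187 CPM in dependent, 834 ± 252 in non-dependent and 852 ± 243 in naive libraries, with -0.51 ± 0.09 (adjusted p = 0.000235). Its difference was further down in IP than in input by 0.37 (adjusted p = 0.0117), while that of C4b was also called in input (1.29 ± 0.22, adjusted p = 0.000413). C4b passed against non-dependent mice as well, at 1.04 ± 0.19 in IP.

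Of 16 other astrocyte regulators, 3 fell and 1 rose in dependent against naive IP. Ptn, encoding the growth factor pleiotrophin, averaged 1862 ± 384 CPM in dependent, 2366 ± 332 in non-dependent and 2893 ± 435 in naive libraries (-0.53 ± 0.09, adjusted p = 0.000246). Il33, a cytokine gene linked to synapse removal, fell by 0.43 and Nrcam, an adhesion gene, fell by 0.31 on the log2 scale, and Ndp, named after its value was seen, rose by 0.38. Ptn and Il33 were also lower in dependent than in non-dependent IP, at -0.35 and -0.31. Of 8 glypican and SPARC relatives, Fstl1 rose (0.48 ± 0.10, adjusted p = 0.00184) and Spock3 fell by 0.47. Of 11 BMP genes, the BMP and activin antagonist gene Fst fell against naive mice (-1.81 ± 0.38, adjusted p = 0.00256) at a low level, 1.79 ± 1.35 CPM in dependent and 4.54 ± 2.41 CPM in naive IP. Bmp6, a ligand, was lower in dependent than in non-dependent mice (-1.01 ± 0.18, adjusted p = 0.000996). Among 16 synaptic partners, Nptx2 fell by 0.69, and 0 of 4 thrombospondin genes passed by edgeR, with 1 of 4 at an unadjusted p under 0.05. Between non-dependent and naive IP, 0 genes of these 6 lists passed.

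Over all 95 libraries, the genes whose log2 CPM ran closest to each of the 9 were mostly other genes high in IP, as both fractions enter the measure. By root mean square difference of centred log2 CPM among 15589 genes, Sparcl1 was nearest to Slc1a3, the glutamate transporter gene (0.177), and Ndrg2 (0.20), and Gpc5 to the same 2 genes (0.237 and 0.243). Chrdl1 was nearest to the water channel gene Aqp4 (0.589) and Dio2 (0.608), Megf10 to Sox2 (0.371) and Jam2 (0.378), and Mertk to Acsl6 (0.289) and Scd2 (0.303). Sparc was nearest to Tmem176b (0.327) and 2310022B05Rik (0.339), Gpc4 to Nfix (0.688) and Adcy2 (0.733), and Gpc6 to 4930402H24Rik (0.493) and Zbtb20 (0.501). Thbs4 had no close neighbour: the nearest, Sfrp1, differed by 1.33 and Hopx by 1.41, where the SD of Thbs4 itself was 2.29. Sfrp1, a secreted Wnt antagonist gene, averaged 133 ± 42.4 CPM in dependent, 106 ± 29.7 in non-dependent and 46.5 ± 22.1 in naive IP libraries. In batches I to L it was called higher than in naive mice both in dependent mice, at 1.45 ± 0.22 (adjusted p = 2.43e-05), and in non-dependent mice, at 1.11 ± 0.24 (adjusted p = 0.0198). Between dependent and non-dependent mice it was not called (0.34 ± 0.21, adjusted p = 0.578). Because Sfrp1 was picked for running with Thbs4 over these same libraries, its treatment differences are no separate support for those of Thbs4. Among the other neighbours, Scd2 (0.23), 4930402H24Rik (-0.29) and Sox2 (-0.22) were also called between dependent and naive mice in IP, where 4.67% of all genes passed.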

How the data were processed

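RNA libraries (Takara SMART-Seq PLUS, per the labels) of 95 IP and input samples were used. Reads were handled with FastQC 0.11.9, Trimmomatic 0.39, STAR 2.7.10b and GRCm38, per the submitters' processing notes. The authors deposited raw counts per Ensembl gene, and the counting program, annotation and strand setting are not given in the sources used here. 0 count columns were left unused. Symbols, positions and lengths came from GENCODE M21, and promoter windows from RefSeq.

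Counts were tested with edgeR 4.0.16 (R 4.3.3; TMM scaling, filterByExpr with a minimum count of 10 and a minimum total of 15, robust quasi-likelihood F test, Benjamini-Hochberg over all genes tested, called at an adjusted p at or under 0.05). IP against input had the mouse as a block. Treatment fits took treatment by sex means plus batch within each fraction, so that a difference between treatments averages the 1 in females and the 1 in males. CPM is the count scaled by the library total, so ranges and counts of mice in CPM take no account of batch. Log2 CPM used TMM factors over all libraries and a prior count of 2. DESeq2 1.42.0 and limma 3.58.1 (voom) were alternatives, beside other scalings, no count filter, no batch term, batches J and K alone, a composition covariate (mean log2 CPM of neuron markers in IP and of astrocyte markers in input) and leaving out each library. Covariates of ependymal, microglia or endothelial markers, and leaving out K15, were chosen after seeing the data. The fits were tested on simulated data with the same dispersion for all genes, no batch or mouse effect, and changes only in genes of higher counts. That setting does not cover a gene as variable as Thbs4. No 2 libraries held the same counts.

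The same mouse gave the 2 fractions, per the series' design text. The median correlation of an IP with its own input was 0.65, against 0.495 with other inputs of its batch. It was over 0.1 in 45 of 46 mice, all but K15, and 31 of 46 IP libraries were closest to their own input.

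The 9 members were named throughout, and from each related list the up to 3 genes with the smallest p in a comparison, of which 1 is not reported here. Of the marker lists, those called were named after their values were seen. The members and lists were chosen with earlier results of these data known.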

Additional observations from a re-analysis of the deposited data

How the results depend on the processing

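All 9 genes stayed higher in IP than in input under each alternative run, including no replicate block, where 9 were called, and without K15. No value changed direction past the threshold. For dependent minus naive mice in IP, 1 gene (Thbs4) was called, against 0 with batches J and K alone, with the composition covariate and with the ependymal, microglia or endothelial covariate, and 0 to 1 when 1 library was left out. In input 1 gene (Thbs4) was called, against 0 with batches J and K alone, the composition covariate, the ependymal covariate, limma voom or no count filter, 2 (with Mertk) with no batch term, and 0 to 1 with 1 library left out. For dependent minus non-dependent mice in IP, 1 gene (Sparc) was called, against 0 with batches J and K alone, 2 (with Thbs4) with no count filter, and 1 in every fit with 1 library left out. For non-dependent minus naive mice in IP the count was 0, against 1 by DESeq2 (Sparcl1) and 2 with no count filter (Sparc and Thbs4). With no count filter 1 gene (Chrdl1) was called between females and males in IP, and 1 (Sparc) for the sex difference of non-dependent minus naive mice, against 0 for each. For dependent minus naive mice in IP minus that in input, 1 gene (Sparcl1) was called with DESeq2 size factors and 1 with limma voom, against 0. The causes were not tested. The median log2 ratio of all genes moved from -0.16 to -0.33 with library size scaling, where the split of dependent minus naive calls in IP was 718 higher and 279 lower, that of dependent minus non-dependent calls 196 and 145, and that of non-dependent minus naive calls 148 and 31. Without a count filter, 481 genes rather than 88 passed for non-dependent minus naive mice in IP and 684 rather than 308 for dependent minus non-dependent mice. Other scalings changed the sign of 16 of 324 member values, none of them called. Low counts limit Thbs4, with a median of 240.5 counts in IP and 24 in input.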
